A study of Brassica oleracea with 4 samples.

Results

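The 8 genes described here encode light-harvesting antenna proteins of the photosystems and 1 core subunit of photosystem I. They are all the rows, of the 135 in the deposited table, whose annotation names LHCA, LHCB, light harvesting or PSAG, a rule on annotation words that was set with earlier results of these data known. Of these, 6 belong to photosystem II (4 annotated LHCB1 and 2 annotated LHCB2) and 2 to photosystem I (LHCA1 and PSAG). All 8 had lower transcript levels in calcium-sprayed than in water-sprayed seedlings, from 2.01-fold to 3.06-fold, and their summed level was 12627 RPKM in the water group and 5837 RPKM in the calcium group. RPKM is a read count scaled to gene length and to the total of mapped reads.

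RNA was sequenced from hypocotyls, the stems below the seed leaves, of broccoli (Brassica oleracea) microgreens at 10 days. All seedlings were raised hydroponically at 25 °C, with 4 days of darkness followed by cycles of 12 h of light and 12 h of darkness. The light was given at 42 µmol per second and square metre in both groups. The water group received a daily spray of water alone, and the calcium group a daily spray of 10 mmol/L calcium chloride. The labels give 2 libraries per group and name no variety, and they do not say whether the libraries came from separate trays. The table used here holds 1 value per group and gene, so the values carry no replicate error, no difference between groups or genes was tested, and the depth behind them is unknown. Every gene in it differed at least 2-fold, so further genes of these families with a smaller difference would not stand in it. Others may be missing for a low level or a high adjusted p-value, since the rule of selection is not known.

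Light-harvesting proteins bind chlorophyll and carotenoids in the thylakoid membrane of the chloroplast and pass the absorbed light energy to the reaction centres. LHCB1 and LHCB2 form the trimers of the main antenna of photosystem II, known as LHCII, while LHCA proteins form the antenna attached to photosystem I. They are encoded in the nucleus, their transcripts are abundant in green tissue and are induced by light, and a hypocotyl greens when a seedling leaves the dark. Several near-identical genes encode LHCB1 in Arabidopsis, and broccoli, with its history of genome triplication, can carry further copies.

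The LHCB1 transcripts made up most of the summed level of the 8 genes. Bo4g182560, annotated LHCB1.3, stood at 7288 RPKM in the water group and 3605 RPKM in the calcium group, a level 2.02-fold lower. It was the most abundant gene of the 135 in both groups. Bo3g027740, annotated LHCB1.4, stood at 2625 RPKM in the water group and 1031 RPKM in the calcium group, 2.55-fold lower. It ranked 2 with water and 3 with calcium among the 135 genes.

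The other LHCB1 genes were less abundant and differed between the groups by unequal amounts. The second gene annotated LHCB1.4, Bo4g039810, stood at 597 RPKM in the water group and 289 RPKM in the calcium group, 2.06-fold lower. The second gene annotated LHCB1.3, Bo7g044900, stood at 429 RPKM in the water group and 140.3 RPKM in the calcium group. Its 3.06-fold difference was the largest of the 8 genes. It was also the single one over 3-fold lower, against 25.2% of the 135 genes that were.

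Both LHCB2 genes match AT3G27690, annotated as light-harvesting complex gene 2.3 of photosystem II. LHCB2 is the LHCII protein whose phosphorylation is known from Arabidopsis to move antenna towards photosystem I. Bo9g008350 stood at 647 RPKM in the water group and 289 RPKM in the calcium group, 2.24-fold lower. Bo2g144900 stood at 316 RPKM in the water group and 157 RPKM in the calcium group, and its 2.01-fold difference was the smallest of the 8 genes.

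Photosystem I was represented by an antenna gene and a core subunit. LHCA1 (Bo8g087140), a protein of the antenna belt on 1 side of photosystem I, stood at 629 RPKM in the water group and 286 RPKM in the calcium group, 2.20-fold lower. PSAG (Bo6g034780), subunit G of photosystem I, to which that belt attaches, stood at 95.1 RPKM in the water group and 40.0 RPKM in the calcium group, 2.38-fold lower. PSAG was the least abundant of the 8 genes in both groups, with LHCA1 6.61 times its level with water and 7.14 times with calcium.

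**Figure D1:**
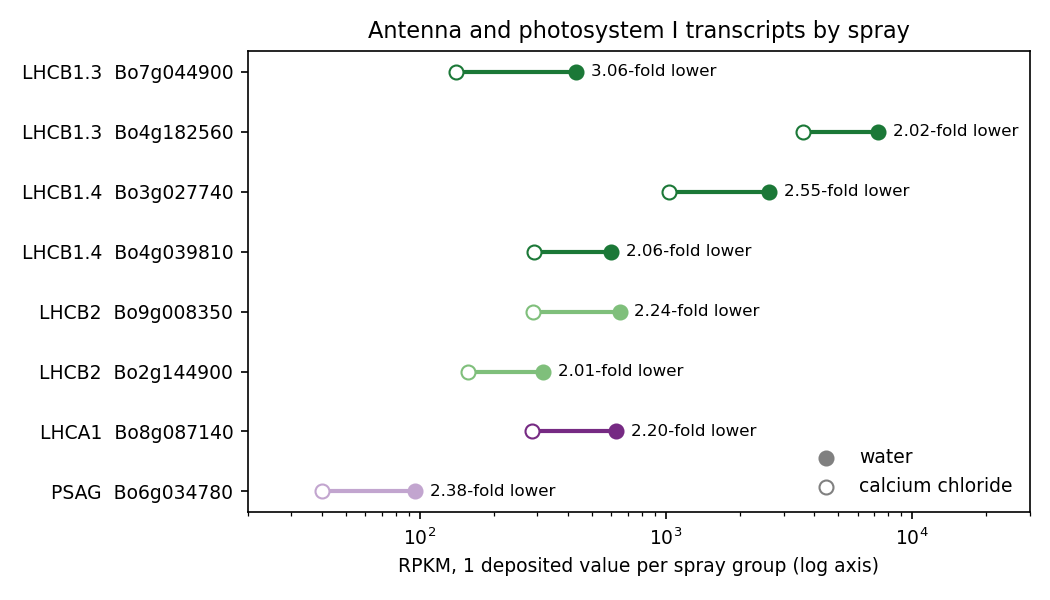
RPKM of each of the 8 genes on a log axis, with filled circles for the water group and open circles for the calcium group, 1 deposited value each. Each open circle lies to the left of its filled circle by 2.01-fold to 3.06-fold, although the levels with water span 95.1 to 7288 RPKM.

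Levels among the 8 genes differed far more than their ratios did. The highest level with water was 76.6 times the lowest, while the largest fold difference was 1.52 times the smallest. The selection of the table cut off folds below 2, which narrows the spread of folds. Whether it also cut on level is not known. The higher of the 2 group values was below 25.75 RPKM in no gene of the table. The correlation that follows carries the same limits. Across the 8 genes the level with water and the fold difference had a Spearman correlation of -0.07, given as a description, since the genes share the same libraries and some are copies of each other. The median log2 ratio of calcium to water was -1.15, beside 1.04 for all 135 genes, of which 71 were higher and 64 lower. The share of genes lower in the whole table was 47.4%, against which the 8 of 8 is read. Because these genes were already known to be lower and include copies, the count was not tested.

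Among the genes in the table, the differences of both photosystems were of similar size. Genes of either photosystem that differed less than 2-fold are absent, and others may be missing for their level or adjusted p-value. The selection thus narrows how far the photosystems could differ, and the likeness cannot be extended to their other genes. The summed level of the 6 photosystem II genes was 11903 RPKM in the water group and 5511 RPKM in the calcium group, 2.16-fold lower. The summed level of the 2 photosystem I genes was 724 RPKM in the water group and 326 RPKM in the calcium group, 2.22-fold lower. The median log2 ratio was -1.10 for photosystem II and -1.19 for photosystem I, a difference of 0.09, and both photosystem I genes lay inside the range of the photosystem II genes. Within photosystem II, the sums were 2.16-fold lower for LHCB1 (10940.1 against 5065 RPKM) and 2.16-fold lower for LHCB2 (963 against 446 RPKM). The photosystem II sum rests largely on Bo4g182560. Without that gene it was 2.42-fold lower and the order of the photosystems turned, with a log2 difference between the sums of -0.12 in place of 0.04. Without replicate values, no interval can be set on any of these differences.

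Side by side, the genes of each annotation kept their order of abundance in both groups but not the same ratio. For the genes annotated LHCB1.3, the more abundant Bo4g182560 was 17.0 times the level of Bo7g044900 with water and 25.7 times with calcium. These match different Arabidopsis genes, AT2G34420 and AT1G29930, although they carry the same annotation. For the LHCB1.4 copies, which both match AT2G34430, Bo3g027740 was 4.40 times the level of Bo4g039810 with water and 3.56 times with calcium. For the LHCB2 copies, Bo9g008350 was 2.05 times the level of Bo2g144900 with water and 1.84 times with calcium. The more abundant gene thus had the smaller fold difference under the LHCB1.3 annotation and the larger one under the LHCB1.4 and LHCB2 annotations. In log2 ratio the pairs were 0.60, 0.30 and 0.15 apart in size. Whether reads were shared between such similar genes was not tested, so the values of single copies are less certain than those of a sum over the copies in the table.

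These unequal ratios moved the shares of the 4 LHCB1 genes in their summed level by a few percentage points. Any LHCB1 copies missing from the table, such as those that differed less than 2-fold, are not in this sum, and the same holds for LHCB2. Bo4g182560 held 66.6% of the summed LHCB1 level with water and 71.2% with calcium. Bo3g027740 held 24.0% with water and 20.3% with calcium. Bo4g039810 changed from 5.46% to 5.71%, and Bo7g044900 from 3.92% to 2.77%. The LHCB2 sum was divided 67.2% to 32.8% between Bo9g008350 and Bo2g144900 with water, and 64.8% to 35.2% with calcium.

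**Figure D2:**
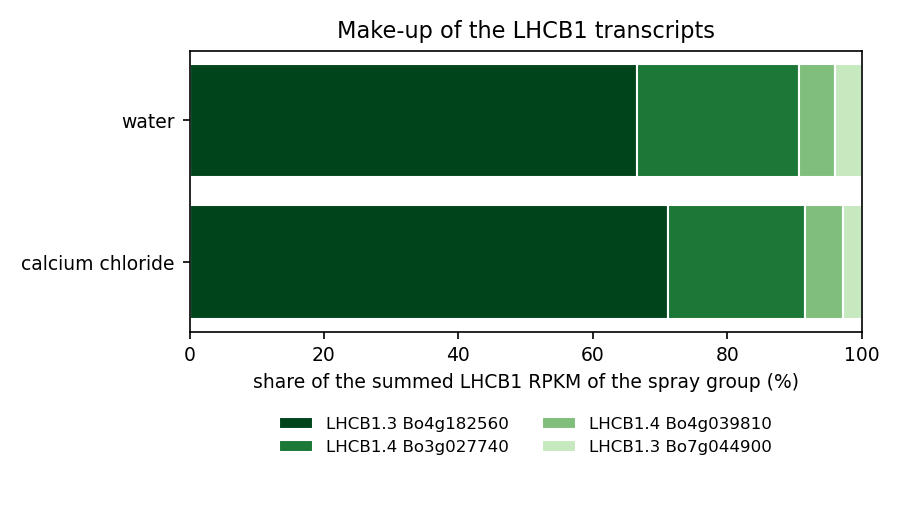
Share of the summed LHCB1 RPKM held by each of the 4 LHCB1 genes, as a percentage of the sum in the water group (upper bar) and in the calcium group (lower bar), with no error because each share comes from 1 deposited value. Bo4g182560 takes 66.6% of the upper and 71.2% of the lower bar, while Bo7g044900 takes 3.92% and 2.77%. Any LHCB1 copies missing from the table, such as those that differed less than 2-fold, are not in the sums.

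Set against the rest of the table, the 8 genes combined high levels with modest ratios. They held 45.5% of the summed RPKM of the 135 genes with water and 23.8% with calcium, and 51.6% of the summed difference of the 64 lower genes. Bo4g182560 alone made up 54.2% of the difference of the 8. A cut on the level with water favours genes lower with calcium, since all 135 genes differed at least 2-fold. Under such a cut, of the 13 genes over 500 RPKM with water, 12 were lower with calcium, and 5 of these are antenna genes. This count therefore says nothing about the direction of abundant genes in general. In fold, by contrast, the median was 3.35-fold over the 56 other lower genes, and 33 of them exceeded the 3.06-fold of Bo7g044900, while 22 lay within the range of the 8 genes and 1 lay below it. Over 2.5-fold lower were 2 of the 8 genes, Bo7g044900 and Bo3g027740, against 31.9% of the 135 genes. The authors' deposited table placed all 8 in its cluster 3, which holds 56 genes. For the adjusted p-value, the authors' deposited table lists 0 for 6 of the 8 genes, 8.15e-10 for Bo2g144900 and 0.00109 for PSAG, the least abundant. Over the whole table, 41 of the 135 genes are listed at 0.

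**Figure D3:**
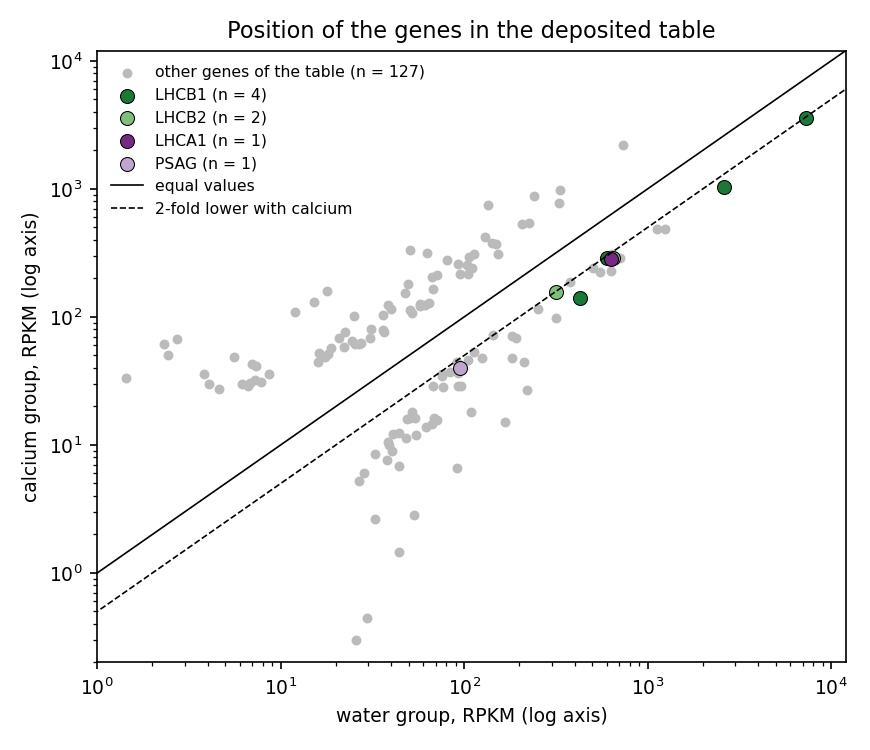
RPKM with water (horizontal, log axis) against RPKM with calcium (vertical, log axis) for all 135 genes, with the 8 genes coloured by family, the other genes in grey, a solid line at equal values and a dashed line at 2-fold lower. The 8 genes lie on or below the dashed line, from 2.01-fold to 3.06-fold lower, while 33 grey points lie further below it.

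The list of other photosynthesis genes matched 4 rows of the table, and these were RuBisCO small subunit genes, parts of the enzyme that fixes carbon dioxide. All 4 had lower levels with calcium, by 2.32-fold to 3.83-fold, beside 47.4% of the 135 genes that were lower. Their sum was 3262 RPKM in the water group and 1310.5 RPKM in the calcium group (2.49-fold lower). Their median log2 ratio was -1.32, beside -1.15 for the antenna and photosystem I genes. Bo4g137150 stood at 1244 RPKM in the water group and 485 RPKM in the calcium group, and Bo4g137140 at 1132 RPKM and 489 RPKM. Bo4g144000 stood at 705 RPKM and 289 RPKM, and Bo6g059930 at 181 RPKM and 47.4 RPKM. The list held words for other photosystem subunits, chlorophyll synthesis, electron carriers and further enzymes of carbon fixation, and no row matched them. No row matched the list for light signalling and the clock either. Since the table is a selection of genes that differed, an unmatched word says nothing about the level of such genes.

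The genes nearest in ratio to the 8 were not all of photosynthesis. Among the 37 other genes with at least 100 RPKM with water, the 5 whose log2 ratio lay closest to the median of -1.15 were taken, a likeness that rests on only 2 group values. They were the legume lectin genes Bo5g127240 (2.19-fold lower) and Bo1g128570 (2.28-fold lower), the RuBisCO gene Bo4g137140 (2.32-fold lower), Bo9g027490 without annotation (2.11-fold lower) and the invertase and pectin methylesterase inhibitor family gene Bo9g014930 (2.09-fold lower).

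The antenna, PSAG and RuBisCO genes are also the markers of leaf and cotyledon tissue in the lists used. All 12 of these in the table were lower, beside 47.4% of the 135 genes, and none was at 0. They are the 8 genes and the 4 RuBisCO genes already described, so the count adds no further gene. Their sum was 15889 RPKM in the water group and 7147 RPKM in the calcium group. In bulk tissue, fewer green cells in a sample and less of these transcripts per cell cannot be told apart. The markers of other tissues in the table were few. The root marker RGF9 (Bo2g166400), a root meristem growth factor, stood at 54.3 RPKM in the water group and 16.2 RPKM in the calcium group. The list for seed and embryo matched 2 genes. The late embryogenesis abundant gene M17 (Bo4g190800) stood at 2.42 RPKM in the water group and 50.1 RPKM in the calcium group. Bo9g120390 stood at 142 RPKM and 376 RPKM, and matched only through a superfamily name that covers lipid transfer proteins as well as seed 2S albumins, so it is no clear seed marker. No vascular marker was matched. The part of tissue make-up in the differences was not tested, and the labelled tissue could not be checked, since no defining hypocotyl marker was among the lists.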

How the data were processed

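The deposited table holds, per the file headers, an RPKM for the control and for calcium in each of 135 genes. The control was read as the water group. The submitters' processing notes name CASAVA, with no version. Not given in the sources used here are the aligner, the build, the gene models and the way in which the 2 libraries of a group became 1 value. Depth is unknown. The authors also deposited log10 values of the RPKM, a signed fold change (a score with a minus where calcium is lower), and an adjusted p-value from a test that no header or label names. The deposited log10 and fold columns equal the values recomputed from RPKM within a relative or absolute 1e-06 in all 135 genes.

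Sums, ratios and ranks were computed from the RPKM values with no pseudocount or filter. The planned limma fit was not run, as it needs values of single libraries. Every gene matching the annotation words is named. The others named are the matches of the photosynthesis and marker lists, and the 5 nearest in log2 ratio. Those under Other observations follow no rule and were chosen after their values were seen. The genes and lists were chosen with earlier results of these data known. No identifier of the 135 matched the RefSeq gene table at hand, so names come from the deposited annotation, and positions and sequences are not given. Pseudocounts of 0.1, 1 and 5 RPKM, filters at 5 and 100 RPKM, stricter thresholds and a shift of the median were the alternatives. Python 3.11.15, NumPy 2.4.6, pandas 2.3.3 and matplotlib 3.10.9 were used.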

Additional observations from a re-analysis of the deposited data

How the results depend on the processing

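No paired analysis was possible because the table holds 1 value per group, and for the same reason no library could be left out. A pseudocount or a filter cannot change the direction of a ratio, and the median shift used here could only enlarge the differences, so these alternatives bear on size and not on direction. Of 47 values of single genes under them, 39 were within 1.5 times of the deposited ratio. The other 8 came from shifting the median log2 ratio of the 135 genes, 1.04, to 0. This shift gave a median log2 ratio of -2.19 for the 8 genes, a sum 4.45-fold lower and single log2 ratios from -2.65 to -2.05. The 135 genes were selected for their difference, so the shift does not normalize the groups. Requiring at least 2.5-fold left 2 of the 8 genes, and at least 3-fold left 1. An adjusted p-value under 0.001 in the authors' deposited table left 7, without PSAG. The share of all 135 genes under 0.001 was not computed, so this count does not set the 8 genes apart from the table. PSAG also failed the filter of 100 RPKM. With 5 RPKM added, Bo2g144900 had a log2 ratio of -0.99, under the 2-fold limit. The difference between the photosystems in median log2 ratio was 0.09. It lay between 0.03 and 0.09 under the other pseudocounts, filters and the median shift and was 0.04 from summed RPKM. From sums without Bo4g182560, chosen after seeing the data, it reversed to -0.12, since that gene has the second smallest ratio of the 8 and most of the sum.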

Other observations

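A few genes outside the list carry a link to the plastid or to chlorophyll and were chosen after their values were seen. Bo01765s010, annotated OEP16-1, a channel protein of the outer plastid envelope, stood at 91.0 RPKM in the water group and 44.6 RPKM in the calcium group, 2.04-fold lower. Bo00722s060 and Bo00722s110 are annotated as Kunitz family protease inhibitors, and the Arabidopsis gene that both match, AT1G72290, is known to encode a water-soluble chlorophyll-binding protein. Bo00722s060 stood at 167 RPKM in the water group and 15.2 RPKM in the calcium group, 11.0-fold lower. Bo00722s110 stood at 44.2 RPKM in the water group and 1.45 RPKM in the calcium group, 30.6-fold lower. Their ratios were beyond the 3.06-fold of any antenna or photosystem I gene in the table. With 5 RPKM added to both groups, the log2 ratios of Bo00722s060 and Bo00722s110 were -3.09 and -2.93.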
